A study of Mus musculus with 5 samples.

Results

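The inhibitor of DNA binding family, the genes Id1, Id2, Id3 and Id4, was followed across 3 populations of mouse mammary epithelial cells. The members were taken by gene symbol, and all 4 were found among the 12293 named genes of the deposited expression table. The cells came from adult virgin mice that had been ovariectomized and had carried hormone pellets for 14 days, a state shared by all groups, and each library was made from about 50 flow-sorted cells that were lineage-negative and CD24+. Luminal-derived basal cells, called LdBC, were CD29hi and GFP+ (2 libraries). Basal cells were CD29hi and TdTomato+ (2 libraries). Luminal cells were CD29low and GFP+ (1 library). The labels do not name the hormones, the strain or the driver of the fluorescent labels, and they do not say whether 2 libraries of a group came from separate animals, so the p-values below cover no more than library-to-library spread, which may be technical.

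Id proteins are small helix-loop-helix factors that lack the basic region with which related factors grip DNA. They pair with E proteins, the widely expressed basic helix-loop-helix (bHLH) factors, and keep them from binding DNA, which in many lineages holds back differentiation. Their genes are known targets of bone morphogenetic protein (BMP) signalling. In the mouse mammary gland Id4 is known for its role in basal cells and ductal growth, and Id2 for its role in the alveolar development of pregnancy.

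The part of the coding sequence that the 4 members share most is shown first, because a family of related genes can be compared only if reads can be told apart. In a window of 120 bases of the GENCODE coding sequence (build GRCm38), 69 bases were the same in all 4 members, and these are in capitals.
Id1, chr2:152736518-152736637, plus strand: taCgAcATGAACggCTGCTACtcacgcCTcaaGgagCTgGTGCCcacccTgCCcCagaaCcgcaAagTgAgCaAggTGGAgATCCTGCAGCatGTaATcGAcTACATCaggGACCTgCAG
Id2, chr12:25095783-25095902, minus strand: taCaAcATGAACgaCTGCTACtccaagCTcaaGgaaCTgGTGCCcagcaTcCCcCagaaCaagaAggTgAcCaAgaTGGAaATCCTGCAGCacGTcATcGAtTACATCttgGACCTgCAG
Id3, chr4:136144002-136144121, plus strand: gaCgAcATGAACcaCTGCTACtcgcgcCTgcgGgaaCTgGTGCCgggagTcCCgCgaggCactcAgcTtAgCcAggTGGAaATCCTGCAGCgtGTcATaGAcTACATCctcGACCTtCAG
Id4, chr13:48261693-48261812, plus strand: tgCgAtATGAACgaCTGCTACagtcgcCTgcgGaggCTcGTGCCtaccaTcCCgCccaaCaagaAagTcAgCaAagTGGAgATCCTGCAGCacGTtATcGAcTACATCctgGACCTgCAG
Within this window Id1 and Id2 were the most alike pair (81.7% identity), and Id1 with Id3 and Id3 with Id4 the least (70.8% each). Over the whole transcripts the longest identical run of any pair was 19 bases, between Id2 and Id3. Of the 50-base stretches of each transcript, none of those of Id1, Id3 and Id4 occurred in a transcript of another annotated gene, and 0.655% of those of Id2 did, in Gm6175. The genes lie apart, Id1 on chromosome 2 (152736251 to 152737410), Id2 on chromosome 12 (25093799 to 25097140), Id3 on chromosome 4 (136143497 to 136145755) and Id4 on chromosome 13 (48261228 to 48266026). Exons of Id4 share 82 bases with the antisense gene A330033J07Rik and 171 with Gm49291, both on the opposite strand. The library protocol is not described as keeping strand, so reads from Id4 and these genes cannot be told apart there.

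The libraries differed in what they detected. Of the 12293 genes, 9201 and 10627 were above 0 in LdBC replicates 1 and 2, 10979 and 10834 in Basal replicates 1 and 2, and 8041 in the luminal library. Of 3535 genes with 5 to 40 FPKM (fragments mapped, scaled by transcript length and by the size of the library) in both basal libraries, the range that holds Id1 and Id4, 7.58% and 1.33% were listed at 0 in LdBC replicates 1 and 2 and 18.4% in the luminal library. By summed level, LdBC carried luminal markers near the luminal level and basal markers below the basal level. The summed FPKM of 9 luminal markers was 29500 and 27700 in LdBC, 1200 and 941 in basal cells, with 24900 in the luminal library. In LdBC and the luminal library this sum came mostly from Krt8 and Krt18, and single markers differed. Both LdBC libraries lay above the luminal one for 6 of the 9 and below it for 2 (all genes 35% and 41.7%). Elf5 had 45.8 and 27.9 FPKM in LdBC and 9.94 FPKM in the luminal library, and Cldn3 had 766 and 647 against 1230. For 9 basal markers the sum was 1530 and 2830 in LdBC, 11700 and 9790 in basal cells, with 3.51 in the luminal library, where 8 of the 9 were listed at 0. The luminal library was also rich in hormone-sensing markers (7 genes, 3250 summed), which reached 119 and 402 in LdBC and 7.61 and 4.71 in basal cells. In RNA from a sorted pool, fewer cells of a type and less RNA per cell cannot be told apart.

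The make-up of the family differed between the populations. Id2 was the most abundant member in LdBC and Id3 in the luminal library, while in basal cells Id3 was slightly ahead of Id2 in both libraries. Id4 and Id1 were minor members everywhere and were highest in basal cells. FPKM is scaled by transcript length, which allows a rough comparison of levels between genes. The gene models that gave the lengths are not stated, and other differences between genes in library making are not corrected.

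Id2 had 178 and 210 FPKM in LdBC, 99.7 and 89.5 FPKM in basal cells and 7.32 FPKM in the luminal library. Both LdBC libraries lay above all 3 others, and both basal libraries lay above the luminal one. This order, with no overlap between groups, was found in 7.93% of the 10626 genes tested.

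Id3 had 21.7 and 60.6 FPKM in LdBC, 117 and 95.7 FPKM in basal cells and 190 FPKM in the luminal library. Its order was the reverse of that of Id2, with LdBC lowest and luminal highest. The same order was found in 5.39% of genes, and LdBC lay below all 3 other libraries in 7.76%. The LdBC libraries were further apart for Id3 (mean 41.2 ± 27.6 FPKM, SD, n = 2) than the basal libraries (106 ± 15.0 FPKM, SD, n = 2).

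Id4 had 6.50 and 1.57 FPKM in LdBC and 29.9 and 20.6 FPKM in basal cells, and was listed at 0 in the luminal library. Basal libraries were the highest, LdBC stood between the other populations, and no groups overlapped, an order found in 5.42% of genes. Id1 was listed at 0 in LdBC replicate 1 and had 9.40 FPKM in replicate 2. It had 20.0 and 9.74 FPKM in basal cells and was listed at 0 in the luminal library. LdBC replicate 2 and Basal replicate 2 were nearly level for Id1, so the order of LdBC and basal cells rests on a gap of under 1 FPKM.

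**Figure D1:**
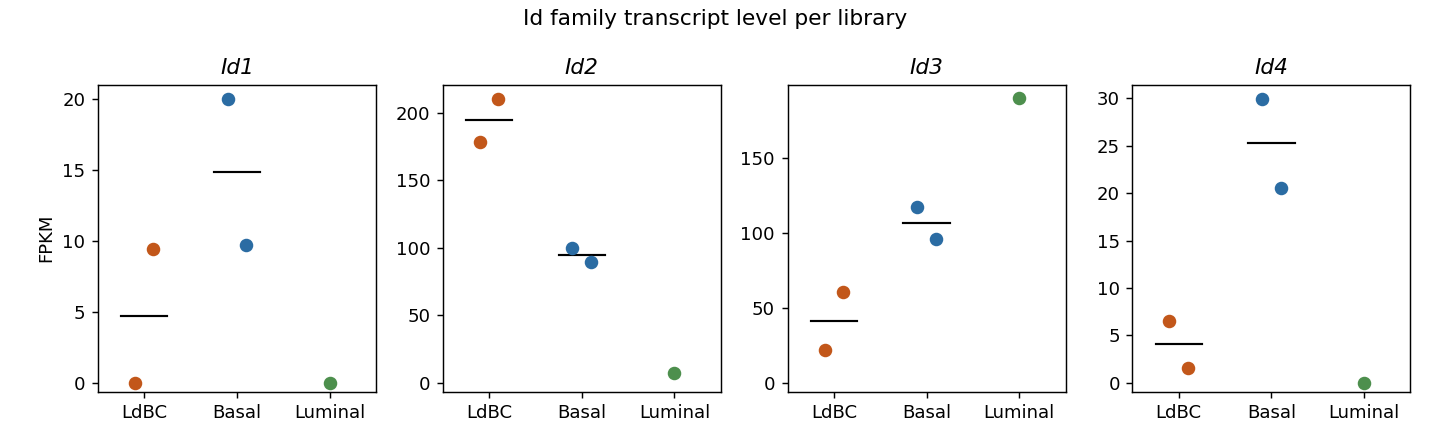
FPKM of Id1, Id2, Id3 and Id4 in each library, with its own linear axis per gene; points are libraries and black lines are the means of the groups with 2 libraries. In the deposited values Id2 is highest in LdBC (178 and 210) and lowest in the luminal library (7.32). In these same values Id3 is lowest in LdBC (21.7 and 60.6) and highest in the luminal library (190).

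The summed level of the family differed less than its make-up. The 4 members together had 206.4 and 282 FPKM in LdBC, 266.5 and 215.5 FPKM in basal cells and 197 FPKM in the luminal library. The LdBC and basal libraries overlapped, with means of 244 ± 53.5 and 241 ± 36.1 FPKM (SD, n = 2 each). Id2 made up 86.3% and 74.6% of the family total in LdBC, 37.4% and 41.5% in basal cells, with 3.71% in the luminal library. Id3 made up 10.5% and 21.5% in LdBC, 43.9% and 44.4% in basal cells, with 96.3% in the luminal library. The share of Id4 was 3.15% and 0.556% in LdBC and 11.2% and 9.55% in basal cells. The ratio of Id2 to Id3 was therefore 8.22 and 3.47 in LdBC, 0.853 and 0.935 in basal cells, with 0.0385 in the luminal library. A ratio of this kind is taken within a library and is not changed by scaling the library as a whole.

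**Figure D2:**
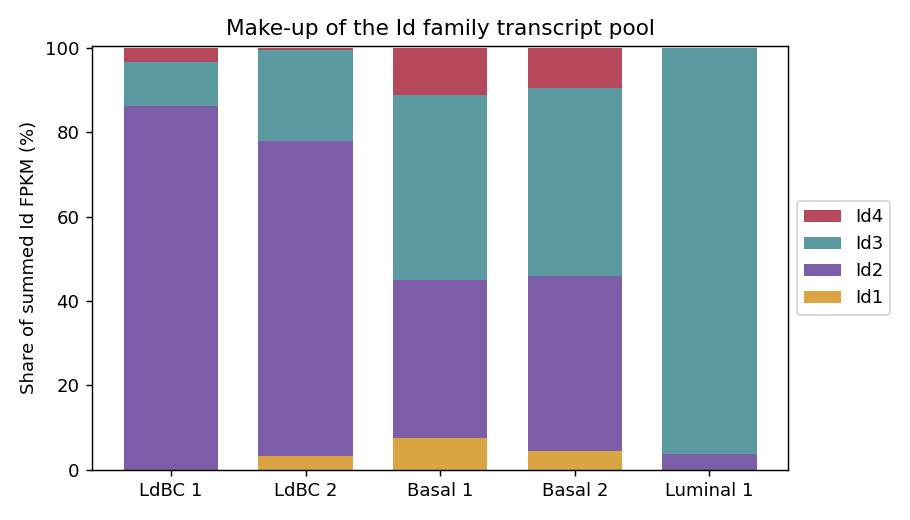
Share of each Id gene in the summed FPKM of the family, in percent, for each of the 5 libraries. Id2 holds 86.3% and 74.6% of the LdBC bars, basal bars are divided mainly between Id2 and Id3, and Id3 holds 96.3% of the luminal bar.

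The first comparison set LdBC against basal cells, which share the CD29hi gate and differ in the label. Id2 was the member with the higher level in LdBC, and Id1, Id3 and Id4 had lower levels, but none of the 4 passed the test. Values were compared as log2(FPKM + 1) in limma over 10626 genes, with Benjamini-Hochberg adjustment over all of them and a call at an adjusted p under 0.05. In this comparison 0.00941% of genes were called, a single gene that is no member. Id2 differed by 1.03 (SE 0.21, 95% interval 0.41 to 1.64, limma adjusted p = 0.136). Id4 differed by -2.56 (SE 0.74, 95% interval -4.70 to -0.41, limma adjusted p = 0.196). Id3 differed by -1.51 (SE 0.58, 95% interval -3.17 to 0.15, limma adjusted p = 0.278). Id1 differed by -2.22 (SE 1.38, 95% interval -6.2 to 1.76, limma adjusted p = 0.477). The intervals are not adjusted for the number of genes tested.

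The median difference over all genes was 0.20. Id2 and Id4 were the members with an unadjusted limma p under 0.05 (0.0108 and 0.0304), as were 20% of all genes, 12.9% higher and 7.12% lower. For Id2 the LdBC libraries were both higher than either basal library, as for 30.5% of genes, and for Id1, Id3 and Id4 both were lower, as for 18.6% of genes. An exact permutation test of 2 against 2 libraries cannot reach the 0.05 threshold and was not used. Leaving out LdBC replicate 1 gave Id1 a difference of -0.53, and leaving out LdBC replicate 2 gave -3.91. That of Id3 was -0.79 and -2.24 in the same order, and that of Id4 was -3.33 and -1.78. Fitted to median-of-ratios scaled values, Id2 differed by 0.64. Endothelial markers moved with 1 basal library: the summed FPKM of 10 such genes was 6 and 22.2 in LdBC, 247 and 0.511 in Basal replicates 1 and 2 and 109 in the luminal library. The luminal sum came mostly from Ly6c1 (102 FPKM), with 6 of the 10 markers, Cldn5, Esam and Emcn among them, listed at 0. All 4 members were higher in Basal replicate 1, the one with the endothelial transcripts, than in Basal replicate 2, and the part of these transcripts in the Id values was not tested. Without it, Id1 differed by -1.74, Id3 by -1.37 and Id4 by -2.30.

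**Figure D3:**
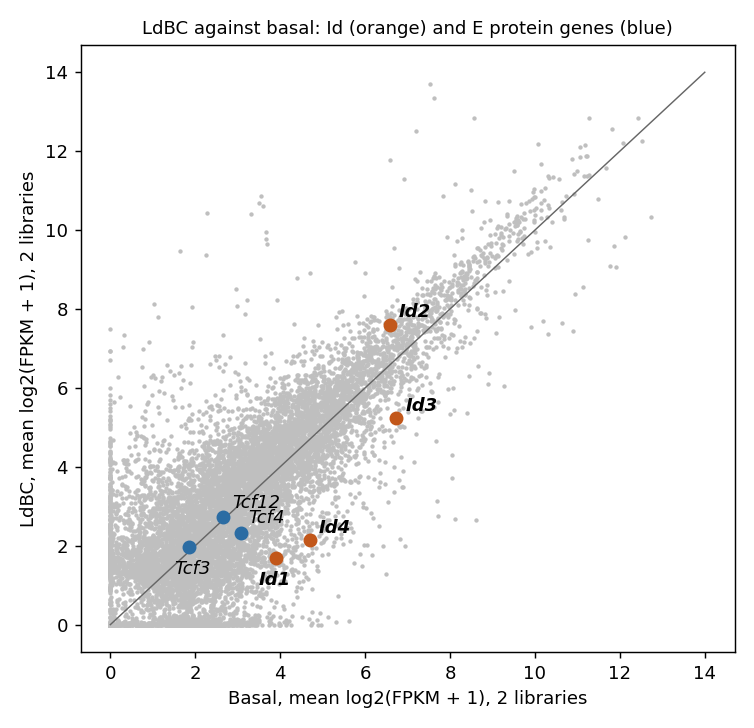
Mean log2(FPKM + 1) of 2 LdBC libraries (vertical) against that of 2 basal libraries (horizontal) for the genes tested (grey); the line marks equal levels. Id2 lies above the line by 1.03, Id1, Id3 and Id4 lie below it, and the 3 E protein genes (blue) lie within 0.77 of it.

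LdBC were next set against luminal cells, which carry GFP as well. Id2 rose in LdBC, to 178 and 210 FPKM against 7.32 FPKM in the luminal library (log2 difference 4.55, SE 0.26, limma adjusted p = 0.0440, higher in 2 of 2 LdBC libraries). It was the only member among the 4.01% of genes called, 2.06% higher and 1.95% lower. Id3 differed by -2.35 (SE 0.70, limma adjusted p = 0.130), with both LdBC libraries below the luminal one, as for 41.7% of genes. Both were above it for Id2 and Id4, as for 35% of genes. Id2 and Id3 had an unadjusted limma p under 0.05, as did 31.2% of genes. Id4 (limma adjusted p = 0.212) and Id1 (limma adjusted p = 0.520) were listed at 0 in the luminal library, so no difference is given. The lone luminal library was taken to vary as much as the other groups. The call of Id2 ended without any 1 of the LdBC or basal libraries (limma adjusted p between 0.0552 and 0.212), when no gene was called, and also when only the libraries of these populations entered the fit (0.237) or with no filter on low values (0.0571). Its difference stayed between 4.01 and 4.87 under all alternatives run.

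Basal cells were then set against luminal cells. Id2 rose here too, to 99.7 and 89.5 FPKM in basal cells against 7.32 FPKM in the luminal library (log2 difference 3.52, SE 0.26, limma adjusted p = 0.0349, higher in 2 of 2 basal libraries), as 1 of the 8.31% of genes called, 3.23% higher and 5.08% lower. With median-of-ratios scaling 61.8% of the calls were higher in basal cells, where the deposited values gave 38.8%, and quantile normalization gave 54.4%. Id4, at 29.9 and 20.6 FPKM in basal cells and listed at 0 in the luminal library, did not pass (limma adjusted p = 0.0604). It passed with a pseudocount of 0.1 (0.0403) and over genes with a mean FPKM of at least 5 (0.0410). Id1 (limma adjusted p = 0.184) and Id3 (difference -0.84, SE 0.70, limma adjusted p = 0.429) did not pass. Both basal libraries lay above the luminal one for Id1, Id2 and Id4, as for 39.8% of genes, and below it for Id3, as for 48.5%. Id2 and Id4 had an unadjusted limma p under 0.05, as did 38.1% of genes. Quantile normalization gave Id3 a difference of 0.06 and median-of-ratios scaling one of -0.05, so its direction between basal and luminal cells depends on the scaling. The call of Id2 ended without any 1 of the LdBC or basal libraries (limma adjusted p between 0.0660 and 0.135) and with only these populations in the fit (0.0674). Both comparisons with luminal cells share its single library.

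The partners of Id proteins, the E protein genes, were expressed at low levels in all populations. Tcf3, which encodes E12 and E47, had 1.80 and 4.48 FPKM in LdBC, 1.86 and 3.53 FPKM in basal cells and 1.80 FPKM in the luminal library. Tcf4, which encodes E2-2, had 2.28 and 6.52 FPKM in LdBC, 10.2 and 5.44 FPKM in basal cells and 11.3 FPKM in the luminal library. Tcf12, which encodes HEB, had 5.08 and 6.15 FPKM in LdBC, 7.49 and 3.66 FPKM in basal cells and 3.23 FPKM in the luminal library. LdBC and basal libraries overlapped for each of the 3, and none passed in any comparison, with 0 at an unadjusted limma p under 0.05. Summed Id transcripts exceeded summed E protein transcripts by 22.53 and 16.45 times in LdBC, 13.64 and 17.07 times in basal cells and 12.05 times in the luminal library. The LdBC and basal ratios overlapped (19.5 ± 4.3 and 15.4 ± 2.4, SD, n = 2 each). Of the 2 LdBC libraries, the one with the higher ratio was that with less E protein transcript, 9.16 FPKM against 17.15 FPKM in the other.

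Of 39 tissue-type and Notch-target bHLH genes listed, 13 were in the table and 9 were tested. Between LdBC and basal cells 0 passed in limma, with 2 higher and 1 lower at an unadjusted p under 0.05, where the background was 12.9% of all genes higher and 7.12% lower, and the median difference was 0.04. Relative to luminal cells 0 passed as higher and 2 as lower in LdBC, and likewise in basal cells, where 1.95% and 5.08% of all genes were called lower. The unadjusted counts were 1 higher and 4 lower in LdBC (all genes 16.7% higher and 14.5% lower) and 0 higher and 5 lower in basal cells (all genes 16.5% higher and 21.6% lower). Hes1, a repressor induced by Notch, had 141 and 159 FPKM in LdBC, 14.9 and 7.31 FPKM in basal cells and 146 FPKM in the luminal library. It fell in basal cells relative to luminal cells (difference -3.68, limma adjusted p = 0.0444) and did not pass in LdBC against basal (3.71, limma adjusted p = 0.123). Hes1 in LdBC was thus near the luminal level while Id2 in LdBC was not.

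Hes6, which antagonizes Hes1, was listed at 0 in both LdBC libraries, had 3.23 and 4.64 FPKM in basal cells and had 32.2 FPKM in the luminal library. It fell in LdBC relative to luminal cells (limma adjusted p = 0.0498), and no difference is given against a group listed at 0. Msc, which encodes the repressor musculin, was listed at 0 in all LdBC and basal libraries and had 25.7 FPKM in the luminal library (limma adjusted p = 0.0440 for LdBC and 0.0349 for basal cells). Genes at 0 in 4 libraries have no spread of their own, so such calls lean on the spread lent by other genes. Of 32 bHLH factors with a leucine zipper or PAS domain, 23 were in the table and 21 tested, and 0 passed in any comparison in limma. At an unadjusted p under 0.05 there were 0 in LdBC against basal, 3 higher and 2 lower in LdBC against luminal and 2 higher and 2 lower in basal against luminal, of 21 genes. The all-gene shares in these comparisons were those given for the bHLH list above. Myc, the growth-promoting factor, had 192 and 164 FPKM in LdBC, 209 and 189 FPKM in basal cells and 231 FPKM in the luminal library.

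Genes of BMP and transforming growth factor beta (TGF-beta) signalling, which acts on Id genes, were read from ligand to target. Of 28 genes listed as ligands, 10 were in the table and 9 were tested; Bmp1, listed for its name, encodes a procollagen protease. Between LdBC and basal cells 0 passed in limma, with 1 higher and 2 lower at an unadjusted p under 0.05 and a median of 0.00. The share of all genes was 12.9% higher and 7.12% lower. In each comparison with the luminal library 0 passed as higher and 1, Bmp3, as lower. Of all genes, 2.06% passed as higher and 1.95% as lower in LdBC, and 3.23% and 5.08% in basal cells. Unadjusted, 3 were higher and 1 lower in LdBC (all genes 16.7% higher and 14.5% lower) and 5 higher and 2 lower in basal cells (all genes 16.5% higher and 21.6% lower). Bmp3, an atypical BMP that opposes BMP and activin signals, was listed at 0 in all LdBC and basal libraries and had 15.0 FPKM in the luminal one (limma adjusted p = 0.0441 for LdBC and 0.0349 for basal cells). Tgfb3, a TGF-beta ligand, had 29.8 and 23.7 FPKM in LdBC, 6.70 and 4.71 FPKM in basal cells and 0.601 FPKM in the luminal library and did not pass (limma adjusted p = 0.142 for LdBC against basal and 0.0519 for LdBC against luminal). Tgfb3 thus had the order of Id2, LdBC above basal above luminal, which was found in 7.93% of all genes. Tgfb2 had 17.5 and 23.1 FPKM in LdBC and 13.1 and 6.75 FPKM in basal cells, and was listed at 0 in the luminal library. Of the 9 ligand genes tested, 2 lay above basal cells in LdBC with no overlap and 3 below (all genes 30.5% and 18.6%). Gdf15 had 10.1 and 26.7 FPKM in LdBC and 43.6 and 11.2 FPKM in basal cells. Bmp7 had 5.99 and 0.341 FPKM in LdBC and 22.3 and 21.6 FPKM in basal cells. Neither had the order of Id2.

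Of 17 receptor and co-receptor genes, 13 were in the table and 11 were tested, and 0 passed in any comparison in limma. In LdBC against basal 0 were higher and 2 lower at an unadjusted p under 0.05, with a median of -1.15, and 7 of 11 lay below basal cells with no overlap, where 18.6% of all genes did. The unadjusted shares over all genes were 12.9% higher and 7.12% lower. In LdBC against luminal 2 were higher and 2 lower unadjusted (all genes 16.7% higher and 14.5% lower). In basal against luminal 7 were higher and 2 lower at an unadjusted p under 0.05 (median 2.90, against -0.13 for all genes), where 16.5% and 21.6% of all genes were. Acvr1, a type I receptor for BMPs and activins, had 9.63 and 10.4 FPKM in LdBC, 25.5 and 32.7 FPKM in basal cells and 12.2 FPKM in the luminal library. Tgfbr3, the co-receptor betaglycan, had 9.61 and 39.4 FPKM in LdBC, 54.9 and 70.6 FPKM in basal cells and 6.14 FPKM in the luminal library. Basal cells were highest for both. Bmpr1a, a BMP type I receptor, had 7.20 and 11.6 FPKM in LdBC and 7.62 and 6.26 FPKM in basal cells, and was highest in the luminal library (39.7 FPKM).

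SMAD proteins carry the signal to the nucleus. Of 8 SMAD genes, 7 were in the table and 6 were tested, and 0 passed in any comparison in limma. At an unadjusted p under 0.05 there were 0 in LdBC against basal, 2 higher and 1 lower in LdBC against luminal, and 2 higher and 0 lower in basal against luminal. Over all genes the shares were 20%, 31.2% and 38.1% in these comparisons, both directions together. Smad1, which transmits BMP signals, had 4.70 and 22.1 FPKM in LdBC and 30.9 and 36.5 FPKM in basal cells, and was listed at 0 in the luminal library, as Id1 and Id4 were. Its LdBC libraries were far apart, and both lay below both basal libraries. Smad4, the shared partner, had 17.0 and 14.1 FPKM in LdBC and 4.46 and 11.1 FPKM in basal cells, and was also listed at 0 in the luminal library. Smad5, which transmits BMP signals as Smad1 does, was instead highest in the luminal library (11.1 FPKM). It was lowest in LdBC (0.457 and 2.33 FPKM), with both basal libraries between. This was the order of Id3, found in 5.39% of all genes. Smad3, which transmits TGF-beta and activin signals, had 31.1 and 33.2 FPKM in LdBC, 22.6 and 28.5 FPKM in basal cells and 39.7 FPKM in the luminal library. Smad7, an inhibitory SMAD, had 23.8 and 17.7 FPKM in LdBC, 25.4 and 25.5 FPKM in basal cells and 25.9 FPKM in the luminal library.

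Of 23 secreted antagonists and intracellular negative regulators of the pathway, 14 were in the table and 13 were tested. Between LdBC and basal cells 0 passed in limma, with 0 higher and 3 lower at an unadjusted p under 0.05 (all genes 12.9% and 7.12%) and a median of -0.24. In LdBC against luminal 1 was higher and 0 lower, where 2.06% and 1.95% of all genes were, and the unadjusted counts were 4 higher and 0 lower (all genes 16.7% and 14.5%). In basal against luminal 2 were higher and 0 lower, where 3.23% and 5.08% of all genes were, and the unadjusted counts were 6 higher and 1 lower (all genes 16.5% and 21.6%). Fst, which encodes the activin-binding follistatin, had 93.9 and 93.8 FPKM in LdBC, 376 and 433 FPKM in basal cells and 0.0689 FPKM in the luminal library. It rose in LdBC (difference 6.47, limma adjusted p = 0.0440) and in basal cells (8.56, limma adjusted p = 0.0190) relative to luminal cells, and did not pass in LdBC against basal (-2.09, limma adjusted p = 0.123). Nbl1, a BMP antagonist of the DAN family, had 11.1 and 9.58 FPKM in LdBC and 36.6 and 29.8 FPKM in basal cells, was listed at 0 in the luminal library and rose in basal cells (limma adjusted p = 0.0349). Like Id4, both had intermediate levels in LdBC, an order found in 5.42% of all genes.

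**Figure D4:**
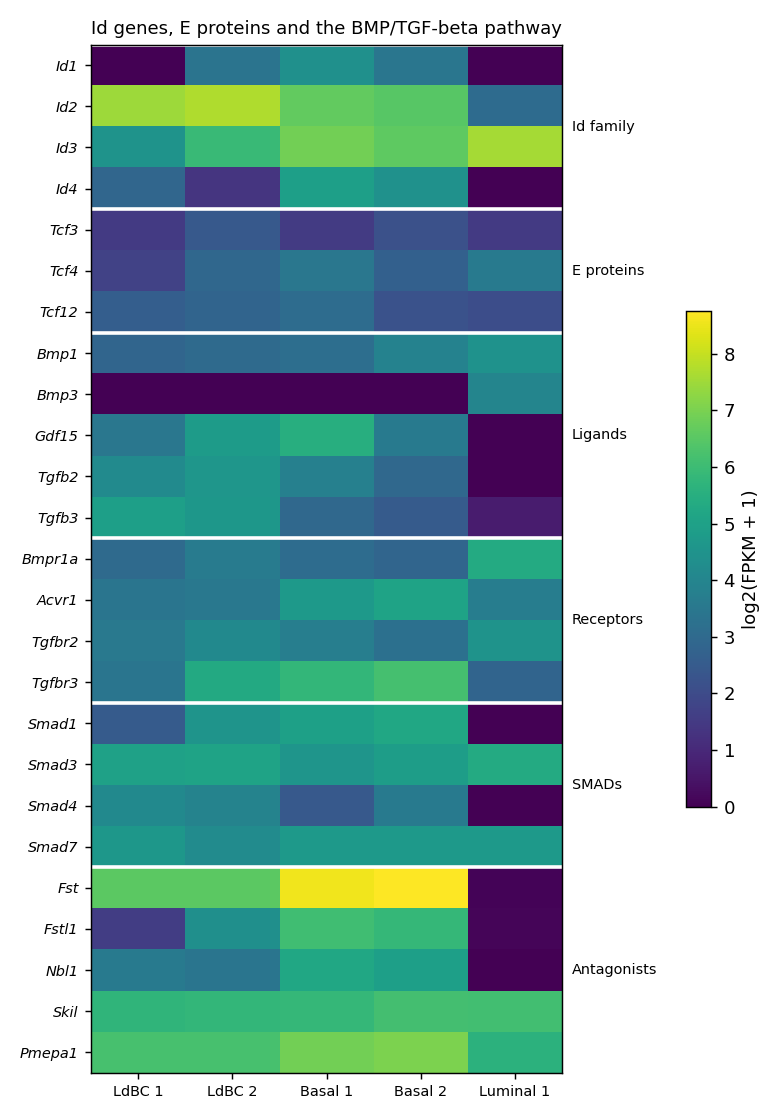
Level of the Id genes, the E protein genes and the most abundant BMP and TGF-beta pathway genes in each library, as log2(FPKM + 1); rows are grouped by role and columns are the 5 libraries. Fst, Nbl1, Smad1 and Id4 are brightest in the basal columns and at or near 0 in the luminal column, while Id2 and Tgfb3 are brightest in the LdBC columns.

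Among 19 other genes known as targets of BMP signalling, 13 were in the table and 8 were tested. Between LdBC and basal cells 0 passed in limma, with 0 higher and 1 lower at an unadjusted p under 0.05 and a median of -0.29. The shares of all genes were 12.9% and 7.12%. In each comparison with the luminal library 1 was called higher and 0 lower. Of all genes, 2.06% were called higher and 1.95% lower in LdBC, and 3.23% higher and 5.08% lower in basal cells. Unadjusted, 2 were higher and 2 lower in LdBC (all genes 16.7% higher and 14.5% lower) and 3 higher and 2 lower in basal cells (all genes 16.5% higher and 21.6% lower). The gene that passed was Snai2, which encodes Slug, a regulator of the basal state. It had 36.6 and 49.2 FPKM in LdBC and 99.2 and 121 FPKM in basal cells, and was listed at 0 in the luminal library (limma adjusted p = 0.0440 and 0.0349). Runx1, a transcription factor of mammary epithelium, did not pass. It had 26.4 and 31.4 FPKM in LdBC, 44.6 and 43.9 FPKM in basal cells and 15.4 FPKM in the luminal library. This was the order of Id4, found in 5.42% of all genes. Other genes of the list were highest in the luminal library. Gata3 had 32.8 and 58.0 FPKM in LdBC, 28.9 and 54.8 FPKM in basal cells and 110 FPKM there. Msx2 and Tbx3 had 46.8 and 22.7 FPKM there. Of the 8 tested, both basal libraries lay above the luminal one for 4 and below it for 4. Over all genes the shares were 39.8% and 48.5%.

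Of 12 mammary genes associated with Id4, 11 were tested. In LdBC against basal 0 passed in limma, with 0 higher and 4 lower at an unadjusted p under 0.05 and a median of -0.63. The shares of all genes were 12.9% and 7.12%. In LdBC against luminal 2 were called higher and 0 lower (all genes 2.06% and 1.95%), and 4 were higher and 4 lower unadjusted (all genes 16.7% and 14.5%). In basal against luminal 4 were called higher and 0 lower (all genes 3.23% and 5.08%), and 5 were higher and 4 lower unadjusted (all genes 16.5% and 21.6%). The matrix protease gene Mmp2 had 37.4 and 49.0 FPKM in LdBC and 55.5 and 80.9 FPKM in basal cells, and the growth factor gene Nrg1 had 9.04 and 14.1 FPKM in LdBC and 57.4 and 54.8 FPKM in basal cells. Both were listed at 0 in the luminal library. Mmp2 rose in LdBC and in basal cells relative to luminal cells (limma adjusted p = 0.0440 and 0.0349), and Nrg1 rose in basal cells (0.0349). Acta2, smooth muscle actin, rose likewise in LdBC and in basal cells, and Sparc in basal cells. Other genes of the list had the opposite order and did not pass; they are named here after their values were seen. Foxa1, a pioneer factor of hormone-sensing cells, had 0.529 and 5.04 FPKM in LdBC and 0 in each basal library, and had 78.7 FPKM in the luminal library. Tnfsf11, which encodes the paracrine signal RANKL, had 0 and 9.72 FPKM in LdBC and 0 in each basal library, and had 164 FPKM in the luminal library. The hormone receptor genes Pgr and Esr1 were likewise highest in the luminal library, at 31.2 and 14.3 FPKM, where Id4 was listed at 0.

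Of 15 further genes whose proteins are reported to bind Id proteins, 10 were tested, and 0 passed in any comparison in limma. At an unadjusted p under 0.05 there were 2 higher and 1 lower in LdBC against basal, 3 higher and 1 lower in LdBC against luminal and 2 higher and 1 lower in basal against luminal. The shares over all genes were 12.9% and 7.12%, 16.7% and 14.5%, and 16.5% and 21.6%, with 10 genes in the list. Ets2, an ETS transcription factor, had 207 and 176 FPKM in LdBC, 95.5 and 100 FPKM in basal cells and 121 FPKM in the luminal library. Cav1, a coat protein of caveolae, had 7.32 and 17.2 FPKM in LdBC, 95.7 and 68.0 FPKM in basal cells and 53.8 FPKM in the luminal library. Cav1 was thus lowest in LdBC, as Id3 and 7.76% of all genes were.

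Id proteins are short-lived, and 8 of 10 listed genes of their turnover were tested. Between LdBC and basal cells 0 passed in limma, with 0 higher and 2 lower at an unadjusted p under 0.05 (all genes 12.9% and 7.12%). Relative to luminal cells 0 passed in LdBC, with 1 higher and 1 lower unadjusted (all genes 16.7% and 14.5%). In basal against luminal 3 were higher and 2 lower unadjusted (all genes 16.5% and 21.6%), and 1 passed, as lower, where 5.08% of all genes did. That gene was Fzr1, an activator of the anaphase-promoting complex, with 6.12 and 4.59 FPKM in LdBC, 2.67 and 2.93 FPKM in basal cells and 43.0 FPKM in the luminal library (basal minus luminal -3.53, limma adjusted p = 0.0485). Fzr1 was highest in the luminal library, where Id2 was lowest. The luminal library lay above both LdBC libraries for 41.7% of all genes and above both basal libraries for 48.5%.

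Of 16 cyclin-dependent kinase inhibitors and genes of the G1 phase, 10 were tested and 0 passed in any comparison in limma. At an unadjusted p under 0.05 there were 1 higher and 2 lower in LdBC against basal, 2 higher and 1 lower in LdBC against luminal and 3 higher and 1 lower in basal against luminal. The shares over all genes were 12.9% and 7.12%, 16.7% and 14.5%, and 16.5% and 21.6%. Cdkn1a, which encodes the inhibitor p21 and is activated by E proteins, had 392 and 293 FPKM in LdBC, 348 and 267 FPKM in basal cells and 293 FPKM in the luminal library. Its LdBC and basal libraries overlapped, and the LdBC library with the lower level was within rounding of the luminal one.

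The genes most like each member were found by the root mean square difference, over the 5 libraries, between log2(FPKM + 1) values centred on each gene's own mean. There were 6237 candidate genes for each member. The members were not alike: the closest pair, Id1 and Id4, differed by 1.59 and the farthest, Id2 and Id3, by 2.55. For Id2 the nearest were Trp53i11 (0.0992), the Iroquois transcription factor gene Irx2 (0.120) and Ccdc58 (0.149). Irx2 had 21.8 and 24.6 FPKM in LdBC and 14.2 and 11.1 FPKM in basal cells, and was listed at 0 in the luminal library. For Id3 they were the calcium-binding protein gene Rcn1 (0.144), the ubiquitin ligase gene Rnf114 (0.153) and Atp2a2, which encodes a calcium pump of the endoplasmic reticulum (0.165). Rcn1 had 10.3 and 30.4 FPKM in LdBC, 46.6 and 51.5 FPKM in basal cells and 90.7 FPKM in the luminal library.

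For Id1 the nearest genes were the phosphatase subunit gene Ppp2r2b (0.203), Lzic (0.209) and Toe1 (0.260). All 3 were listed at 0 in LdBC replicate 1, as Id1 was. For Id4 they were C2cd4b (0.330), the ligand gene Bmp7 (0.368) and the metalloprotease gene Adamts4 (0.402). Bmp7 had 5.99 and 0.341 FPKM in LdBC and 22.3 and 21.6 FPKM in basal cells, and was listed at 0 in the luminal library. With 5 libraries such likeness describes these libraries alone.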

How the data were processed

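RNA was sequenced in 5 libraries (2 LdBC, 2 basal, 1 luminal) made with a modified Smart-seq2 protocol on an Illumina HiSeq instrument, per the labels' protocols. TopHat2 2.0.4, Cufflinks 2.0.2 and Cuffdiff 2.0.2 were used on mm10, per the submitters' processing notes. Which gene models were counted is not given in the sources read. The table deposited by the authors holds log2(FPKM + 1): with base 2, 99.69% to 99.78% of values above 1 in a library return an FPKM of 6 significant digits within 0.02 of the last digit. Every row has a library above 1 FPKM (lowest 1.0003), so a gene under that level is not analysed here. Cufflinks FPKM are estimates, with 195 to 553 genes per library between 0 and 0.1, so whole reads were not recovered, depth is unknown and no count model was used.

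Of 12311 rows, 18 with names turned into dates were left out. The 10626 genes whose mean FPKM reached 1 entered 1 limma 3.58.1 fit with an intensity trend on log2(FPKM + 1), a pseudocount of 1, with a mean per group over all 5 libraries; the prior had 1.65 degrees of freedom beside 2 residual ones. P-values are two-sided. Fold changes of low genes come out too small on the log2(FPKM + 1) scale. The fit was tested on simulated data with planted differences and the same spread for every gene. That test does not show how many true differences the fit finds at the spread of these libraries. Members and gene lists were chosen with earlier results of these data known. Named genes were to be the members, the 3 genes most like each (mean FPKM of at least 5, current symbol), and some genes per list. These were the 4 with the highest mean FPKM, those that passed, and those at 0 in both libraries of a group and at 5 or more in both of another. Not every gene that met this rule is printed, and no rule was set for the choice among them. Foxa1, Tnfsf11, Pgr, Esr1, Smad5, Msx2 and Tbx3 fall outside it and are printed after their values were seen. Sequences and positions come from GENCODE M21 (GRCm38, the assembly of mm10). Markers of pericytes, fibroblasts, immune and Schwann cells were read too: their summed FPKM was 6.46 and 15.9, 29.5 and 67.7, 26.6 and 16.7, and 32.5 and 39.9 in LdBC replicates 1 and 2. In basal replicates it was 32.1 and 21.8, 287 and 277, 20.3 and 4.83, and 52.0 and 41.7. In the luminal library it was 0, 305, 33.1 and 14.6. The fibroblast sums came mostly from Dcn, at 26.8 and 67.0 FPKM in LdBC, 275 and 268 FPKM in basal cells and 305 FPKM in the luminal library. In that library 6 of the 7 fibroblast markers read were listed at 0. Its immune sum was Cd68 alone (33.1 FPKM) and its Schwann sum Mbp alone (14.6 FPKM).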

Additional observations from a re-analysis of the deposited data

How the results depend on the processing

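With 2, 2 and 1 libraries of about 50 cells, counts of calls moved with most settings, while the direction of the members mostly did not. Of 148 alternatives for single members, 133 kept direction and side of the threshold. Another 11 lost a call, 2 gained one and 2 were counted as reversed. All the lost calls were those of Id2 against luminal cells, and most of the 148 had no call to lose. The total thus says little about how firm the Id2 calls were. Of those counted as reversed, Id3 changed sign and Id1 went to 0. The causes were not tested. In LdBC against basal the 1 call became 0 with a pseudocount of 0.1, median-of-ratios scaling, limma without trend or only the groups compared, 2 over genes with a mean FPKM of at least 5, and 4 (3 higher, 1 lower) with quantile normalization. In LdBC against luminal the 426 calls became 1175 with a pseudocount of 0.1, 4 with no filter, 788 over a mean of at least 5, 258 with median-of-ratios scaling, 647 without trend and 0 with only the groups compared; quantile normalization gave 184 higher and 111 lower. In basal against luminal the 883 calls became 1826, 488, 1621 and 570 under the first 4 of these and 0 with only the groups compared. Median-of-ratios scaling gave 352 higher and 218 lower there, and quantile normalization 428 and 359. Leaving out 1 library gave 0 to 0 calls in every comparison.

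Id2 lost its call against luminal in LdBC (4.55 with no filter and with only the groups compared, 4.43 to 4.67 without 1 library) and in basal cells (3.52 with only the groups compared, 3.44 to 3.60 without 1 library). The fitted Id4 value for basal against luminal, which is no fold, was 7.96 with a pseudocount of 0.1 and 4.69 over a mean of at least 5, with a call in both. Id3 reversed to 0.0611 in basal against luminal with quantile normalization. Id1 in LdBC against luminal ran from 0 to 3.38 without 1 library, at 0 where both were listed at 0. The ratio of Id to E protein transcripts was 7.98 in the luminal library with quantile normalization, and with Tcf4 alone below the line it was 66.9 in LdBC, 32.9 in basal cells, with 17.4 in the luminal library. The median difference of all genes was -0.09, 0.27 and 0.37 with median-of-ratios scaling in the 3 comparisons, in the order above.

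Replicate numbers are not said to mark a shared animal or day. The differences between replicates 1 and 2 in LdBC and in basal cells correlated at 0.0115 over 10626 genes. Such a value cannot tell whether libraries of the same number were paired. With the replicate block 0 genes were called in LdBC against basal (1710 at an unadjusted p under 0.05), and the limma adjusted p of Id2 was 0.276.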
